A study of Mus musculus with 4 samples.

Results

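The core of the Hippo pathway was followed in mouse joint tissue labelled as articular cartilage, as 10 genes chosen by name, namely the kinase genes Stk3, Stk4, Lats1 and Lats2, the co-activator genes Yap1 and Wwtr1 (which encodes Taz), and the transcription factor genes Tead1, Tead2, Tead3 and Tead4. They are 10 of the 50686 genes listed for the hip libraries and of the 54838 listed for the knee libraries, and all 10 had at least 10 counts in each of the 4 libraries. Poly-A RNA was sequenced from male mice with 1 library per condition. Cbfb encodes the partner subunit of the Runx transcription factors, and by the labels all mice carried floxed Cbfb alleles (Cbfb f/f). The hip control came from Cbfb f/f mice labelled as untreated, without Cre, and the other hip library from Cbfb f/f;Col2a1-CreERT mice injected with tamoxifen (TMX), in which Cre is driven by the type II collagen promoter of chondrocytes. The study's text elsewhere calls the hip control mice wild type, and its methods give Cbfb f/f mice TMX or corn oil. The knee control came from oil-injected Cbfb f/f;Aggrecan-CreERT mice, and the other knee library from TMX-injected mice of the same genotype, with Cre driven from the aggrecan gene. The hip mice are described as 6 weeks old, elsewhere as 2 months old, and the knee mice as 12 weeks old. TMX was given at 75 mg/kg a day for 5 days, from 2 weeks of age in the hip line and from 8 weeks, elsewhere 6 weeks, in the knee line. By these labels the hip pair also differs in TMX and Cre. The joints also differ in their Cre line, in age, in the kind of control, in the counting and in the tissue as the study describes it. None of these can be told apart from the joint.

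In the Hippo pathway, the Mst kinases (Stk3 encodes Mst2 and Stk4 encodes Mst1) phosphorylate and activate the Lats kinases. The Lats kinases phosphorylate Yap and Taz, which are then held in the cytoplasm or degraded. Without that phosphorylation Yap and Taz enter the nucleus and bind the Tead factors, which bring them to DNA. In cartilage the pathway is known for its part in chondrocyte proliferation, maturation and the response to mechanical load. RNA levels report none of the phosphorylation, location or stability of these proteins.

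Total counts on genes ranged from 34264456 to 38473120 per library. The labelled tissue was checked against 16 chondrocyte marker genes, all of them with counts in all 4 libraries, and their summed share of counts was 0.0362% in the hip control, 0.0327% in the hip library labelled Cbfb-deficient, 0.667% in the knee control and 0.410% in the other knee library. Skeletal muscle markers held 17.4% of counts in the hip control, 18.05% in the other hip library, 1.13% in the knee control and 2.55% in the other knee library. The hip libraries therefore carried far more counts of muscle than of chondrocyte markers. Col2a1, the type II collagen gene, had 354 and 228 counts in the hip, against 87367 and 33204 in the knee. Chondrocyte markers had 4 intervals above 0 and 9 below 0 in the hip, among 15 with at least 10 counts (median log2 ratio -0.47), and 4 and 12 of 16 in the knee (median -1.63), 11 of them changed downwards. Adipocyte markers had 5 of 7 above 0 in the hip (median 0.71) and 7 of 7 in the knee (median 0.93). By the study's own description the knee tissue held bone besides cartilage, and the hip tissue cartilage alone. Osteoblast and osteocyte markers held 0.0866% of counts in the hip control and 0.0202% in the other hip library, with 5 of 8 intervals below 0 (median log2 ratio -1.19), and 1.18% and 0.677% in those of the knee, with 6 of 8 below 0 (median -0.90), and the part of these markers in the results below was not tested. In RNA from whole tissue, fewer cells of a type and less RNA per cell cannot be told apart. Cbfb itself had 2548 counts in the hip control and 2946 in the hip library labelled Cbfb-deficient (log2 ratio 0.37, 95% interval 0.30 to 0.45), and 3796 and 4572 in the knee (log2 ratio -0.08, interval -0.14 to -0.01). With the trend in length and GC content removed, as described below, these ratios were -0.27 (-0.35 to -0.20) and 0.00 (-0.07 to 0.06), so the hip ratio of Cbfb changed sign. The counts cover the whole gene and do not separate the floxed part from the rest, so they check neither label, and directions below are those of the libraries as labelled.

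Levels are given in CPM, the count of a gene per 1000000 counts on all genes of its library. Each log2 ratio sets the library labelled Cbfb-deficient over its own control after scaling by the trimmed mean of M-values (TMM) within the pair, after 0.5 was added to the counts. The interval beside a ratio is a 95% Clopper-Pearson interval and holds counting error alone. With 1 library per condition there is no replicate error and no test, and every ratio compares 2 libraries rather than 2 genotypes. A gene is called changed where the ratio is at least 1 in size and the interval excludes 0. In the knee, scaling by library size alone would place every ratio 0.19 higher. The ratios of all genes also followed transcript length and GC content, and ratios with this trend removed are described below.

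In the hip pair, 8 of the 10 genes had a counting interval above 0 and 2 had one below 0, and the median log2 ratio of the 10 was 0.70 against -0.02 over all genes with at least 10 counts. Yap1, Tead1 and Stk3 were changed upwards and Tead4 downwards. Over all genes of the hip pair, 19.6% were changed upwards and 16.9% downwards, and 36.3% had an interval above 0 and 34.9% below 0. Of the same 10 genes in the knee pair, 4 had an interval above 0, 2 had one below 0 and 4 had an interval that included 0, with a median of 0.11 against 0.01 over all genes. None of the 10 was changed in the knee, where 8.96% of all genes were changed upwards and 6.92% downwards, and where 31.6% had an interval above 0 and 30.0% below 0. With a ratio of at least 0.5 in size as the minimum, 7 of the 10 were changed upwards and 2 downwards in the hip, beside 29.1% and 26.6% of all genes, and 1 and 1 in the knee, beside 18.4% and 16.1%. The genes were chosen with earlier results of these data known, so these counts describe the genes named and no others.

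**Figure D1:**
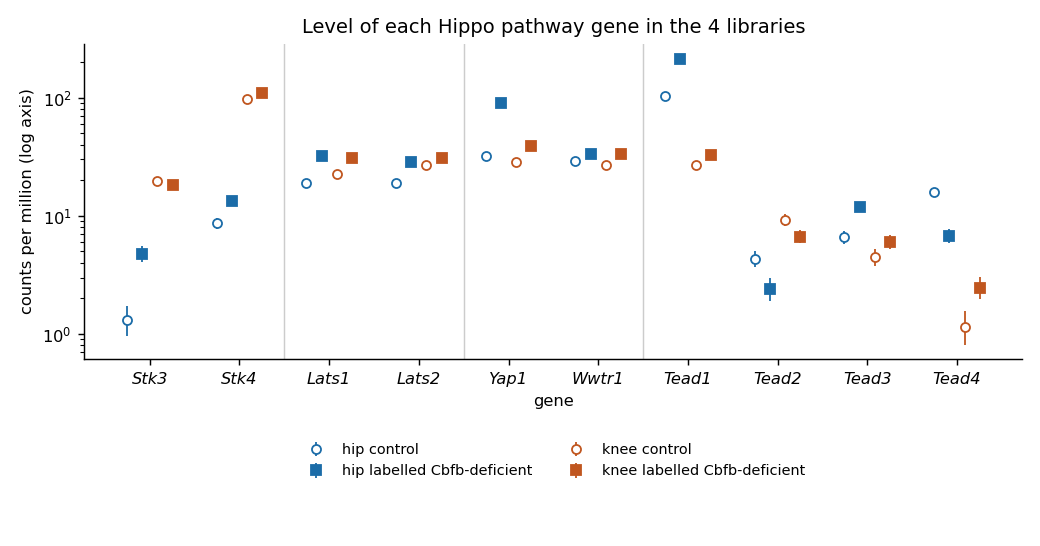
Level in CPM (log axis) of each gene in the 4 libraries, with open circles for the controls, filled squares for the libraries labelled Cbfb-deficient, blue for hip and orange for knee, and bars for the 95% counting interval. Tead1 in the hip libraries (103 and 210 CPM) and Stk4 in the knee libraries (96.8 and 110 CPM) lie highest, and Stk3 in the hip control (1.30 CPM) and Tead4 in the knee control (1.14 CPM) lowest.

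Stk3 and Stk4 encode the kinases at the head of the cascade. Stk3 (ENSMUSG00000022329, chromosome 15 from 34874700.0 to 35179067, minus strand, GRCm39) had 50 counts in the hip control and 165 in the hip library labelled Cbfb-deficient, or 1.30 and 4.77 CPM. It had 680 counts in the knee control and 696 in the other knee library, or 19.8 and 18.2 CPM. The hip levels thus lay below both knee levels, and the deficient-labelled library was the higher of the hip pair and, in CPM, the lower of the knee pair. The log2 ratio of Stk3 was 1.88 (1.42 to 2.37) in the hip and -0.31 (-0.47 to -0.16) in the knee, on opposite sides of 0. The knee interval depended on the scaling, since the ratio was -0.12 (-0.28 to 0.03) by library size alone and -0.13 (-0.29 to 0.02) by library size without mitochondrial, muscle and erythroid genes. The hip ratio rests on the 50 counts of the control and has the widest interval of the 10 genes in that pair.

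Stk4 (ENSMUSG00000018209, chromosome 2 from 163912242 to 163997444, plus strand) had 333 and 462 counts in the hip libraries, control first, or 8.66 and 13.4 CPM. In the knee it had 3317 and 4197 counts, or 96.8 and 110 CPM. Stk4 was thus 11.2 times as high in the knee control as in the hip control, and Stk3 15.3 times, with the joints counted and scaled apart. The ratio of Stk4 was 0.63 (0.43 to 0.84) in the hip and -0.01 (-0.07 to 0.06) in the knee. Beside these levels, erythroid markers held 0.589% and 0.222% of counts in the hip libraries, against 9.98% and 4.94% in those of the knee. Neutrophil markers held 0.0445% and 0.0513% in the hip libraries, against 3.38% and 2.73% in those of the knee. Their part in the levels of Stk3 and Stk4 was not tested.

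Lats1 and Lats2 encode the kinases that act on Yap and Taz directly. Lats1 (ENSMUSG00000040021, chromosome 10 from 7556736 to 7592226, plus strand) had 730 counts (19.0 CPM) in the hip control and 1112 (32.2 CPM) in the library labelled Cbfb-deficient, and 776 (22.6 CPM) and 1173 (30.7 CPM) in the knee. Lats2 (ENSMUSG00000021959, chromosome 14 from 57926960.0 to 57995845, minus strand) had 730 (19.0 CPM) and 981 (28.4 CPM) in the hip, against 920 (26.9 CPM) and 1183 (30.9 CPM) in the knee. Both genes were at like levels in the joints, with the hip control lowest. Lats1 had a log2 ratio of 0.77 (0.63 to 0.91) in the hip and 0.25 (0.12 to 0.38) in the knee. The hip ratio of Lats1 changed sign with the trend removed, to -0.19 (-0.32 to -0.05), and the knee ratio was then 0.07 (-0.06 to 0.21). For Lats2 it was 0.59 (0.45 to 0.73) in the hip and 0.02 (-0.11 to 0.14) in the knee. Lats1 shares 165 exonic bases with Pcmt1 on the other strand, which had 4487 and 4680 counts in the hip, against 3316 and 3970 in the knee. Whether counting used strand is not given in the sources used here, so reads in those bases may belong to either gene. Lats2 shares 2955 exonic bases with Gm49361, annotated on the same strand, which had 0 counts in both knee libraries and was not among the genes listed for the hip libraries. What this did to the knee counts of Lats2 was not tested.

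Yap1 encodes the co-activator Yap. Yap1 (ENSMUSG00000053110, chromosome 9 from 7932000.0 to 8004661, minus strand) had 1224 counts (31.8 CPM) in the hip control and 3110 (89.9 CPM) in the hip library labelled Cbfb-deficient. In the knee it had 970 counts (28.3 CPM) in the control and 1498 (39.2 CPM) in the other library. The controls of the joints were close, and the hip library labelled Cbfb-deficient stood above the other 3. Yap1 had a log2 ratio of 1.51 (1.41 to 1.60) in the hip, a 2.84-fold higher normalised count, and 0.28 (0.17 to 0.40) in the knee, or 1.22-fold. The knee ratio of Yap1 was 0.09 (-0.03 to 0.21) with the trend removed.

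Wwtr1 encodes Taz, the paralog of Yap. Wwtr1 (ENSMUSG00000027803, chromosome 3 from 57363067 to 57483331, minus strand) had 1120 counts (29.1 CPM) and 1148 (33.2 CPM) in the hip, against 918 (26.8 CPM) and 1281 (33.5 CPM) in the knee. All 4 libraries lay close together, those labelled Cbfb-deficient slightly higher in each joint. Wwtr1 had a log2 ratio of 0.20 (0.08 to 0.32) in the hip and 0.14 (0.01 to 0.26) in the knee. Once the trend was removed these were -0.55 (-0.67 to -0.43) and 0.04 (-0.08 to 0.16), and the knee interval of Wwtr1 also included 0 with DESeq2 size factors and with upper quartile scaling. The log2 ratio of Yap1 exceeded that of Wwtr1 by 1.31 (1.16 to 1.46) in the hip and by 0.15 (-0.02 to 0.32) in the knee, or by 2.07 and 0.05 with the trend removed, so the pair of paralogs parted beyond counting error in the hip pair and not in the knee pair.

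The Teads are the DNA-binding partners of Yap and Taz. Tead1 (ENSMUSG00000055320, chromosome 7 from 112278522 to 112506014, plus strand) had 3952 counts (103 CPM) in the hip control and 7263 (210 CPM) in the hip library labelled Cbfb-deficient, and 924 (27.0 CPM) and 1249 (32.7 CPM) in the knee. Both hip libraries lay above both knee libraries, and the hip control held 3.81 times the CPM of the knee control. Its log2 ratio was 1.04 (0.98 to 1.10) in the hip and 0.09 (-0.03 to 0.21) in the knee. Muscle markers, given above, were likewise a larger share of counts in the hip than in the knee. The muscle markers went both ways within the hip pair, with log2 ratios from -2.004 to 2.97, and their part in the level and the ratio of Tead1 was not tested. The call of Tead1 depended on the processing, since its hip ratio was 0.78 with upper quartile scaling, 0.96 with 10 counts required in each library and 0.26 with the trend removed.

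Tead2 (ENSMUSG00000030796, chromosome 7 from 44865172 to 44883071, plus strand) had 167 counts (4.34 CPM) and 83 (2.40 CPM) in the hip, against 317 (9.25 CPM) and 255 (6.67 CPM) in the knee. It was the only one of the 10 genes with an interval below 0 in both joints, at -0.84 (-1.24 to -0.46) in the hip and -0.66 (-0.90 to -0.42) in the knee. Its hip ratio was -0.33 (-0.73 to 0.06) with the trend removed. Tead2 shares 223 exonic bases with Cd37, a gene of lymphocytes on the other strand, which had 305 and 232 counts in the hip, against 4635 and 4713 in the knee. Reads in those bases may likewise belong to either gene. Lymphocyte markers had 0 intervals above 0 and 4 below 0 in the hip, among 5 with at least 10 counts (median -1.60). In the knee they had 0 above and 4 below 0 of 6 (median -0.53). Their part in the ratios of Tead2 was not tested.

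Tead3 (ENSMUSG00000002249, chromosome 17 from 28550645 to 28569791, minus strand) had 253 counts (6.58 CPM) and 408 (11.8 CPM) in the hip, against 153 (4.47 CPM) and 230 (6.02 CPM) in the knee. The hip library labelled Cbfb-deficient was the highest of the 4. Its log2 ratio was 0.85 (0.62 to 1.08) in the hip and 0.24 (-0.06 to 0.55) in the knee.

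Tead4 (ENSMUSG00000030353, chromosome 6 from 128201251 to 128277786, minus strand) is known from muscle and from the early embryo. It had 611 counts (15.9 CPM) in the hip control and 234 (6.77 CPM) in the hip library labelled Cbfb-deficient, and 39 (1.14 CPM) and 94 (2.46 CPM) in the knee. The control was the higher of the hip pair and the lower of the knee pair, and both knee levels lay below both hip levels. The log2 ratio of Tead4 was -1.22 (-1.45 to -1.002) in the hip and 0.91 (0.37 to 1.502) in the knee, again in opposite directions beyond counting error. Over all 16 muscle markers, 7 had an interval above 0 and 8 below 0 in the hip, while 16 of 16 had one above 0 in the knee, and their part in the ratios of Tead4 was not tested.

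**Figure D2:**
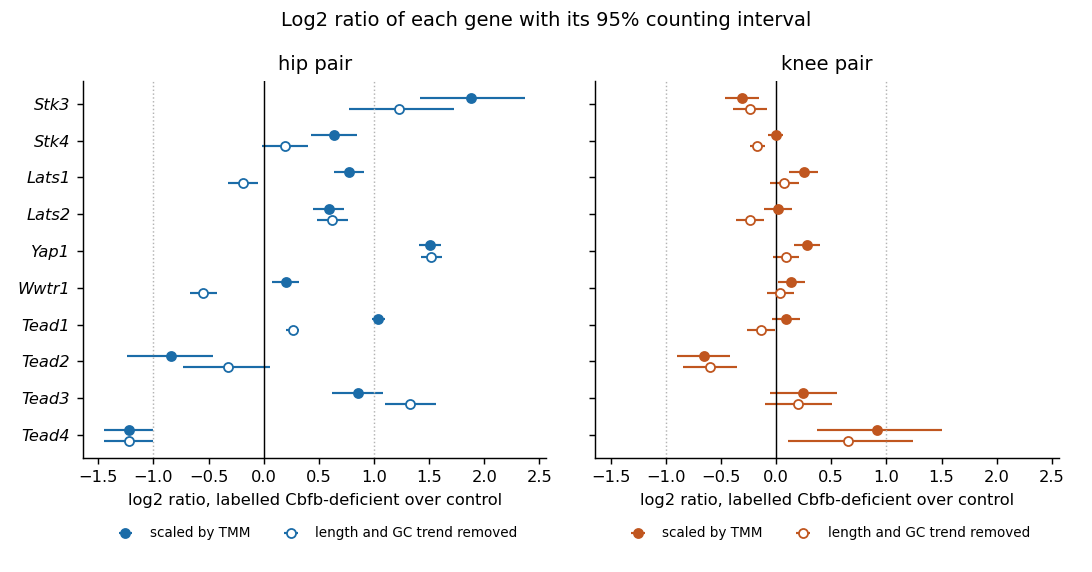
Log2 ratio of each gene, library labelled Cbfb-deficient over its control, in the hip pair (left) and the knee pair (right), with bars for the 95% counting interval, filled points as scaled by TMM and open points once the trend over length and GC content was subtracted; dotted lines mark a ratio of 1 in size. In the hip Yap1 (1.51 and 1.52) and Tead4 (-1.22 in both) keep their place while Wwtr1 (0.20 and -0.55) and Lats1 (0.77 and -0.19) cross 0, and in the knee Tead4 (0.91) and Tead2 (-0.66) lie farthest from 0.

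Across the joints, as scaled by TMM, Yap1, Wwtr1 and Lats1 had intervals above 0 in both pairs, Tead2 below 0 in both, and Stk3 and Tead4 lay on opposite sides. The other 4 genes had a knee interval that included 0. Of Yap1, Wwtr1, Lats1 and Tead2, none kept its side of 0 in both joints beyond the interval with the trend over canonical length and GC content removed. With merged exons as the length, chosen after seeing the data, Tead2 did. Its hip ratio was then -0.48 (-0.88 to -0.09), and its knee interval stayed below 0 in all 11 settings. Whether the ratio of a gene differs between hip and knee was not tested, since each joint had 1 library per condition.

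The share of each paralog within its family needs no scaling between libraries, although the trend in length and GC content was not removed from it. Yap1 held 52.2% of the counts of Yap1 plus Wwtr1 in the hip control (exact interval 50.2% to 54.3%) and 73.0% in the hip library labelled Cbfb-deficient (71.7% to 74.4%). In the knee libraries the share was 51.4% and 53.9%, with overlapping intervals (49.1% to 53.7% and 52.0% to 55.8%). The other 3 libraries thus divided their counts nearly evenly between Yap1 and Wwtr1. Lats1 and Lats2 had equal counts in the hip control, and Lats1 held 53.1% of their sum in the other hip library and 45.8% and 49.8% in those of the knee. The difference in hip log2 ratio, Lats1 minus Lats2, was 0.18 (-0.01 to 0.37) and turned to -0.81 with the trend removed. Stk3 held 13.1% and 26.3% of the counts of Stk3 plus Stk4 in the hip, against 17.0% and 14.2% in the knee, so Stk4 was the major form by count in every library. Among the 4 Teads, Tead1 held 79.3% and 90.9% of counts in the hip, against 64.5% and 68.3% in the knee. Tead4 went from 12.3% to 2.93% in the hip and from 2.72% to 5.14% in the knee. These shares make no allowance for length. Per kilobase of the canonical transcript, Tead1 held 58.9% and 75.7% in the hip, against 30.4% and 36.1% in the knee. Tead2 then held 48.4% and 34.2% in the knee libraries. Per kilobase of merged exons, Tead1 held 43.8% and Tead2 37.4% in the knee control, so the largest Tead there depended on the length used.

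**Figure D3:**
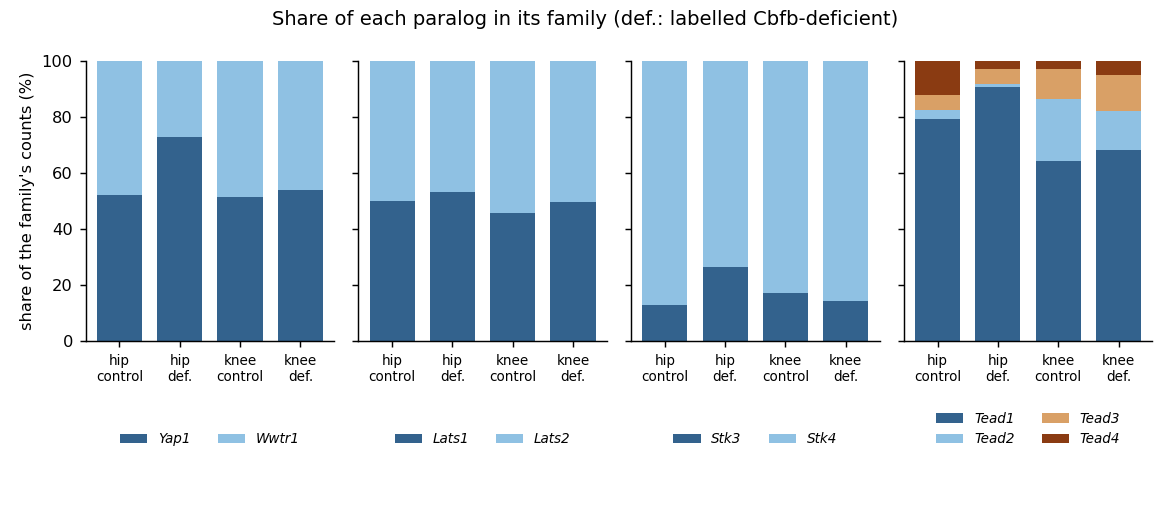
Share of counts (%, vertical axis) of each paralog in its family in the 4 libraries, for Yap1 and Wwtr1, Lats1 and Lats2, Stk3 and Stk4, and the 4 Teads. The Yap1 share of 73.0% in the hip library labelled Cbfb-deficient stands apart from 51.4% to 53.9% in the other 3 libraries. By count, without allowance for length, Tead1 is the largest share of the Teads in all 4.

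Summed over each family, the hip log2 ratio was 1.02 (0.95 to 1.10) for Yap1 plus Wwtr1, 0.84 (0.79 to 0.89) for the Teads, 0.87 (0.69 to 1.06) for Stk3 plus Stk4 and 0.68 (0.59 to 0.78) for Lats1 plus Lats2. All 4 sums were thus higher in the hip library labelled Cbfb-deficient, although Tead2 and Tead4 were lower there. In the knee the sums were 0.21 (0.13 to 0.30) for Yap1 plus Wwtr1, 0.13 (0.04 to 0.22) for Lats1 plus Lats2, 0.01 (-0.09 to 0.11) for the Teads and -0.05 (-0.11 to 0.01) for Stk3 plus Stk4. With the trend removed from each gene before summing, a step chosen after seeing the data, the hip sums were 0.87 for Yap1 plus Wwtr1, 0.38 for Stk3 plus Stk4, 0.27 for Lats1 plus Lats2 and 0.21 for the Teads. In the knee they were then 0.0644, -0.18, -0.0875 and -0.16 in the same order.

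Levels can be compared between genes only per length, here CPM per kilobase of merged exons. In the hip control Tead1 was highest (7.57), then Yap1 (3.39), Tead4 (2.62), Wwtr1 (2.46), Lats2 (1.81), Lats1 (1.51), Stk4 (1.12), Tead3 (0.979), Tead2 (0.795) and Stk3 (0.0829). Neighbours whose intervals overlapped were Tead4 and Wwtr1, Stk4 and Tead3, and Tead3 and Tead2. In the hip library labelled Cbfb-deficient, Tead1 (15.5) and Yap1 (9.59) stood above the rest, Wwtr1, Lats2 and Lats1 followed at 2.81, 2.71 and 2.56 with overlapping intervals between neighbours, and Tead4 was eighth at 1.12. In the knee, Stk4 was highest (12.6 in the control and 14.3 in the other library), then Yap1 (3.02 and 4.18), Lats2 (2.56 and 2.95) and Wwtr1 (2.26 and 2.83), and Tead4 was lowest (0.188 and 0.405). The intervals of Lats2 and Wwtr1 overlapped in both knee libraries, as did those of Tead1 and Lats1. Yap1 was thus next to the highest in all 4 libraries by this length. The place of Stk3 depended on the length used, since its merged exons span 15680 bases and its canonical transcript 2914. Per kilobase of the canonical transcript it was at 6.81 in the knee control, below Stk4, with an interval that overlapped that of Yap1 at 6.76. Other places moved as well. Per kilobase of the longest transcript, Wwtr1 lay above Yap1 in the hip control (6.19 and 6.02) and the knee control (5.70 and 5.36). Their intervals overlapped in both controls. By the canonical transcript, Tead4 came to 2.68 in the hip control, below Lats2 at 3.46. By the same length Tead1 came to 2.71 in the knee control, below Tead2 at 4.31.

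Among genes with at least 10 counts in a library, Yap1 lay at percentile 70.9 of levels per kilobase in the hip control and 84.9 in the hip library labelled Cbfb-deficient, and at 57.6 and 62.4 in the knee. Tead1 lay at 83.0 and 90.1 in the hip and Stk4 at 85.1 and 86.1 in the knee. Stk3 lay at 6.25 in the hip control and Tead4 at 10.4 in the knee control. The 10 genes thus ran from among the lowest to among the higher expressed genes of these libraries.

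Transcript length and GC content went with the ratios of all genes, length in both joints and GC content in the hip. Across 19585 hip genes the Spearman correlation of the ratio was 0.22 with canonical transcript length and -0.38 with GC content, and the bin of lowest GC had a median ratio of 1.06 against -0.60 in the bin of highest GC. In the knee the correlations were 0.25 and 0.03 across 20829 genes. Genes are not independent replicates, and these values are descriptions. Canonical transcripts of the 10 genes ran from 2148 bases (Tead2) to 9969 (Tead1), and their GC content from 42.5% (Stk3) to 59.0% (Tead3). Wwtr1, with 4700 bases and 43.9% GC, and Lats1, with 7433 bases and 44.0% GC, lie where hip ratios ran high, and the trend fitted to all genes, the sum of a step for length and a step for GC content, was 0.75 and 0.96 there. Yap1, with 4187 bases and 50.7% GC, and Tead4, with 5931 bases and 54.0% GC, lie where the fitted trend was -0.01 and 0.00.

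After the trend was subtracted, 5 of the 10 genes in the hip had an interval above 0 and 3 below 0, and the median of the 10 was 0.23. Over all genes of the hip pair 34.5% then had an interval above 0 and 32.8% below 0. Yap1 stayed at 1.52 (1.43 to 1.62), Tead4 at -1.22 (-1.45 to -1.002) and Lats2 at 0.62 (0.48 to 0.76). Stk3 went from 1.88 to 1.23 (0.77 to 1.73), Tead3 came to 1.33 (1.10 to 1.56) and Tead1 to 0.26 (0.21 to 0.32). Wwtr1 and Lats1 changed sign, as given above, and the intervals of Stk4 and Tead2 then included 0, at 0.19 (-0.02 to 0.40) and -0.33. Yap1, Tead3 and Stk3 were then the genes changed upwards and Tead4 the gene changed downwards, beside 13.6% and 15.5% of all genes. Stk3 was no longer changed where the trend used the longest transcript (0.83) or merged exons (0.66), nor was Tead4 where it used merged exons (-0.89), both lengths chosen after seeing the data. In the knee 1 gene had an interval above 0 (Tead4, 0.65) and 5 below 0 (Tead1 -0.14, Tead2 -0.60, Lats2 -0.24, Stk3 -0.24 and Stk4 -0.17), and the median was -0.05. Over all genes of the knee pair 29.2% then had an interval above 0 and 30.2% below 0, and 9.29% were changed upwards and 5.29% downwards. Whether the trend stems from the libraries or from the tissue was not tested.

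**Figure D4:**
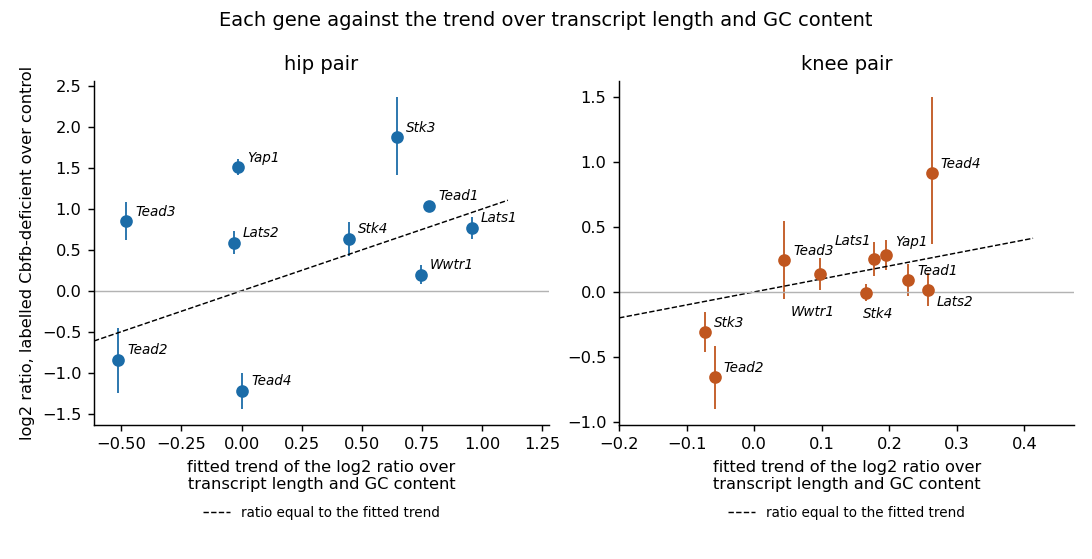
Log2 ratio of each gene (vertical axis, with its 95% counting interval) against the trend fitted to all genes over canonical transcript length and GC content (horizontal axis, log2 ratio), for the hip pair (left) and knee pair (right); on the dashed line the ratio equals the trend. In the hip Yap1 lies 1.52 above the line and Tead4 1.22 below it, while Stk4 (0.63 against 0.45) lies near it.

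Promoter windows from RefSeq (GRCm38.p6, from 250 bases before to 50 bases after a start) were matched for 7 of the 10 genes, Yap1, Wwtr1, Lats1, Lats2, Stk4, Tead2 and Tead3, in 11 windows. Each window occurred once in GRCm39, and the places below are those of that match. The core motif bound by Teads, searched as GGAATG on both strands, was in windows of 4 of the 7 genes, beside 16.6% of all 27025 genes with a window and 14.7% of all 32851 windows. The Runx motif, searched as TGTGGT on both strands, was in none of the 11 windows, beside 18.9% of all genes with a window and 16.8% of all windows. The motifs do not overlap each other. These 30-base stretches on the strand of each gene are shown because Teads are themselves among the genes followed, and capitals mark the match.
Yap1 (chr9:8004721-8004750, minus strand): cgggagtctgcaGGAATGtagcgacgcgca
Wwtr1 (chr3:57483450-57483479, minus strand): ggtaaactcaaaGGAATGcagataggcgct
Lats2 (chr14:57983559-57983588, minus strand): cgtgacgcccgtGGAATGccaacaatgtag
Tead3 (chr17:28569944-28569973, minus strand): gacgacgagcgaGGAATGgggtgcgcggga
The match begins 141 bases before the start in Yap1, 136 before it in Wwtr1, 182 before it in Tead3 and at base 5 of the transcript in Lats2. Wwtr1, Lats2 and Tead3 have more than 1 window, and these places count from the start of the window that gave the stretch. The match of Wwtr1 also lies in its other window, which has another start. Tead3 held 3 further matches in another of its windows. A match is a description of letters and not a site of binding, and Yap1 (1.51), Wwtr1 (0.20), Lats2 (0.59) and Tead3 (0.85), whose windows hold a match, and Lats1 (0.77), Stk4 (0.63) and Tead2 (-0.84), whose windows hold none, overlapped in their hip ratios.

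The genes around this core were described from lists, by their counts and medians beside those of all genes given above. Of 18 upstream regulators, 13 had an interval above 0 and 4 below 0 in the hip (median 0.53), and 13 and 3 in the knee (median 0.21). Map4k2 (1.72 in the hip and 0.36 in the knee) and Tnik (1.81 and 0.90), kinases that can act in place of Stk3 and Stk4, were highest by the naming rule, and Dchs1 (-1.29 and 1.12), a large cadherin, and Map4k1 (-0.97 and -0.19) were lowest. Tnik in the hip, at 0.79, and Dchs1 in the knee, at 0.80, were no longer changed once the trend was removed. Sav1, Mob1a, Mob1b, Stk38 and Stk38l, the scaffold, the Mob adaptors and the Ndr kinases that work with the Mst and Lats kinases, had 5 of 5 intervals above 0 in each joint, with medians of 1.30 and 0.35. Among them Sav1, the partner of Stk3 and Stk4, had 1426 and 2530 counts in the hip, a log2 ratio of 0.99 (0.90 to 1.08), and 285 and 1208 in the knee, a ratio of 1.74 (1.55 to 1.93). Mob1b was at 1.65 and 0.23, Stk38 at 1.57 and 0.35, and Stk38l at 0.80 and 0.40. With the trend removed, 3 of the 5 in the hip and 4 in the knee kept an interval above 0, Sav1 among them at 0.70 and 1.66, and the medians were 0.59 and 0.22. Mob1b was then at 0.17 (-0.0019 to 0.35) and 0.08 (-0.02 to 0.18), and Stk38l at 0.15 (-0.06 to 0.37) in the hip. The upstream regulators then had 11 above and 3 below 0 in the hip (median 0.38), and 7 and 4 in the knee (median 0.01).

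The STRIPAK phosphatase complex removes phosphate from the Mst kinases. Of its 12 subunits listed, 9 had an interval above 0 and 1 below 0 in the hip (median 0.65) and 6 and 3 in the knee (median 0.09). Slmap (1.71 and 0.44) and Strn3 (1.46 and 0.81) were highest, and Strn4 (-0.07 and -0.07) was among the lowest in the hip. With the trend removed, 5 of the 12 were above 0 and 1 below 0 in the hip (median 0.13), and 3 and 5 in the knee (median -0.05), with Strn4 at 0.30 (0.17 to 0.43) and -0.24 (-0.33 to -0.15). The LIM proteins that restrain Lats gave Ajuba -0.64 and -1.27, Limd1 0.45 and -0.34, and Wtip -0.80 and 0.15. With the trend removed, the hip ratios of Ajuba, at -0.25 (-0.70 to 0.19), and Wtip, at -0.15 (-0.46 to 0.16), had intervals that included 0. Among 11 proteins that bind Yap or Taz, 7 had an interval above 0 and 1 below 0 in the hip (median 0.15) and 3 and 4 in the knee (median -0.04), or 6 and 3 (median 0.24) and 1 and 7 (median -0.07) with the trend removed. Amot, which can hold Yap in the cytoplasm, had 1842 and 7000 counts in the hip, a log2 ratio of 2.09 (2.01 to 2.16), and 209 and 782 in the knee, a ratio of 1.56 (1.34 to 1.79). Amotl2, which is also among the target genes below, was at 1.42 and 0.03, and the 14-3-3 genes Ywhag and Ywhah at -0.05 and -0.01 in the hip, against 0.11 and -0.09 in the knee. Once the trend was removed, Amotl2 was at -0.18 in the knee, Ywhag at -0.01 in the hip and -0.06 in the knee, and Ywhah at 0.30 and -0.02. The Vgll cofactors, which compete with Yap and Taz for the Teads, gave Vgll2 0.38 and 0.56, Vgll3 1.79 and -1.31, and Vgll4 0.05 and 0.91, while Vgll1 had no counts in any library. With the trend removed, the hip ratio of Vgll3 was 0.51 (-0.03 to 1.11), that of Vgll2 0.998 and that of Vgll4 0.49 (0.33 to 0.65), and in the knee they were -1.42, 0.63 and 0.997 in the same order.

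Genes commonly used as readouts of Yap and Tead activity did not share a direction in either joint. Of 21 such genes, 12 had an interval above 0 and 4 below 0 in the hip (median 0.54), and 6 and 12 in the knee (median -0.18), or 11 and 4 (median 0.27) and 4 and 14 (median -0.24) with the trend removed. Ccn1 had log2 ratios of 0.36 (0.29 to 0.43) and -0.18 (-0.27 to -0.09), and Ccn2 of -0.19 (-0.28 to -0.11) and -0.47 (-0.51 to -0.43). Ankrd1, also known as a muscle gene, had 602 and 1510 counts in the hip, a ratio of 1.49 (1.35 to 1.63), and 905 and 349 in the knee, a ratio of -1.72 (-1.90 to -1.54). Igfbp3 was at 1.58 and 0.10, Axl at -0.46 and 0.23, and Ccdc80 at -1.41 and -0.18. The hip ratio of Ccn2 was -0.0494 (-0.14 to 0.04) after trend removal, and the knee ratios of Axl and Igfbp3 turned to -0.0092 and -0.018, both with intervals that included 0. Wnt5a and Wnt5b, which the study names as Yap targets, were at -0.39 and -2.50 in the hip, against 0.39 and -0.46 in the knee, and as the study names them in its account of Cbfb-deficient cartilage they are not independent evidence. After trend removal Wnt5a was at -1.04 in the hip, where it was then changed, and at 0.18 (-0.08 to 0.46) in the knee. Yap1 at 1.51 thus stood above Ccn1 and Ccn2 in the hip ratios, close to Ankrd1, Igfbp3 and Amotl2.

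**Figure D5:**
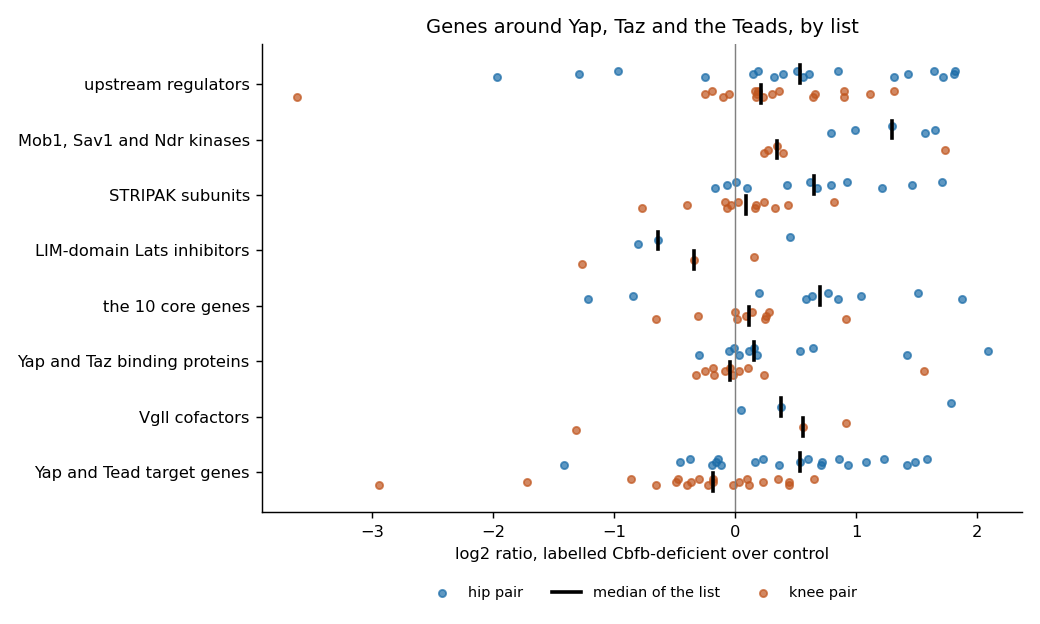
Log2 ratio (horizontal axis) of every gene with at least 10 counts over the pair in each list, hip in blue and knee in orange, with a black bar at the median of the list. The hip median of the 10 core genes is 0.70 and that of Sav1, the Mob adaptors and the Ndr kinases 1.30 (0.23 and 0.59 once the length and GC trend is removed), and the target genes spread on both sides of 0 in each joint, with medians of 0.54 and -0.18.

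Over 9648 genes with at least 100 counts in each library, the pairs of hip and knee ratios nearest to that of Yap1 were those of Tchp (1.503 and 0.28), Fnip1 (1.52 and 0.28) and Mgat4a (1.52 and 0.29), by distance between the pairs of ratios over 2 values each. Of these 9648 genes, 33 lay within 0.1 of Yap1, so other genes had nearly the same pair of ratios. Whether this number is large or small beside that of other genes was not tested.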

How the data were processed

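The authors deposited whole-number counts of reads per Ensembl gene, without normalization, 1 file per library. Their methods give alignment to GRCm39 with STAR, while the submitters' processing notes list mm10, STAR 2.0 and FastQC 0.11.3. The hip files end in the summary lines of HTSeq (25.8% and 24.6% of the reads listed), which were left out. The counting program of the knee files and any use of strand are not given in the sources used here. The RNA extraction notes name osteoblasts, the tissue labels articular cartilage. GENCODE (GRCm39) matched 91.8% of hip and 92.6% of knee identifiers.

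Ratios used TMM factors of edgeR 4.0.16 within each pair, from genes with at least 10 counts over the pair, in R 4.3.3. An alternative took size factors from DESeq2 1.42.0. Python 3.11.15 with numpy 2.4.6, pandas 2.3.3, scipy 1.17.1 and matplotlib 3.10.9 did the rest. The trend was the median ratio over 20 bins of canonical transcript length and then GC content, in 2 rounds. A count of 3 was the floor, 0.0780 to 0.0876 CPM. From the lists, the genes named were the 2 highest and 2 lowest in hip ratio with at least 100 counts in the higher hip library, plus Ccn1, Ccn2, Ankrd1, Wnt5a, Wnt5b and Cbfb. Of the genes this rule takes, 1 is not reported here. Members and lists were chosen with earlier results of these data known. The calls were tested on simulated counts, which hold counting error alone.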

Additional observations from a re-analysis of the deposited data

Results flagged for a closer look

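Tead4 and Stk3 lay on opposite sides of 0 in the joints, each beyond its counting interval as scaled by TMM. The log2 ratio of Tead4 was -1.22 in the hip and 0.91 in the knee, from 611 and 234 counts and from 39 and 94 counts. The log2 ratio of Stk3 was 1.88 in the hip and -0.31 in the knee, from 50 and 165 counts and from 680 and 696 counts. By library size alone the knee ratio of Stk3 was -0.12 (-0.28 to 0.03), and without mitochondrial, muscle and erythroid genes -0.13 (-0.29 to 0.02), so its interval then included 0. The difference between the joints was not tested, as each joint had 1 library per condition. The joints also differ in Cre line, age, control, counting and the tissue as the study describes it.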

How the results depend on the processing

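No paired analysis was possible because each condition had 1 library. Over 11 settings (the values reported, 8 alternatives and 2 chosen after seeing the data, which took the longest transcript or the merged exons as the length in the trend), the interval of the hip ratio stayed above 0 for Yap1 (1.25 to 1.54), Tead1 (0.26 to 1.08), Tead3 (0.59 to 1.34), Lats2 (0.33 to 0.66) and Stk3 (0.66 to 1.91), and below 0 for Tead4 (-1.48 to -0.89). In the knee it stayed below 0 for Tead2 (-0.73 to -0.47) and above 0 for Tead4 (0.65 to 1.10). The hip ratio of Wwtr1 changed sign to -0.0615 with upper quartile scaling and to -0.55, -0.56 and -0.73 with the trend removed by canonical, longest and merged length, and that of Lats1 to -0.19, -0.29 and -0.19. The knee ratio of Wwtr1 came to -0.0422 with merged length. Upper quartile scaling moved the hip median of all genes by -0.26, gave 2 genes changed downwards and a median of 0.44. Trend removal left 5 hip intervals above 0 and a median of 0.23, and in the knee 1 above and 5 below with a median of -0.0493. A minimum ratio of 0.5 gave 7 hip genes changed upwards and 2 downwards, and for the knee 1 and 1. Tead1 was no longer changed at 0.78 with upper quartile scaling and at 0.96 with 10 counts required in each library, which left 2 genes changed upwards, nor at 0.26 with the trend removed. With the trend by longest transcript and merged exons Stk3 was not changed (0.83 and 0.66), and with merged exons nor was Tead4 (-0.89). The knee sum of Lats1 plus Lats2 came to -0.0875 with the trend removed from each gene, also chosen after seeing the data. Scaling the knee by library size, with or without mitochondrial, muscle and erythroid genes, gave 1 gene changed upwards (Tead4), 8 intervals above 0 and 1 below, with medians of 0.30 and 0.29. The cause of these changes was not tested. DESeq2 size factors, 2 added to each count and no count filter moved none of the 10 ratios beyond its counting interval in either joint. Ranking levels by canonical length, also chosen after seeing the data, put Yap1 above Tead1 in the hip library labelled Cbfb-deficient (21.5 and 21.1 CPM per kilobase, with overlapping intervals). Depth limits most the ratios of Stk3 in the hip and Tead4 in the knee, whose controls had 50 and 39 counts.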

Other observations

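Among the listed genes outside the naming rule, singled out after their values were seen, Wwc1 (Kibra, an activator of Lats) had 50 counts in the hip control and 11 in the hip library labelled Cbfb-deficient, and 315 and 32 in the knee. Its log2 ratios of -1.97 (-3.11 to -1.06) and -3.62 (-4.22 to -3.12) were the lowest of the upstream regulators in both joints. Foxf2, a listed target gene, had 8 counts in each hip library, and 136 in the knee control and 22 in the other knee library, a knee ratio of -2.95 (-3.69 to -2.32), the lowest of the target genes there. Fat4, the partner of Dchs1, had a log2 ratio of 0.19 (-0.10 to 0.48) in the hip and 1.31 (0.98 to 1.66) in the knee, or -0.24 (-0.53 to 0.05) and 1.006 after removal of the trend in length and GC content.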
